A study of Homo sapiens with 24 samples.

Results

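Interferon-stimulated effector genes encode the proteins that a cell makes against viruses once an interferon signal has arrived. The genes described here are a list of named genes from the main effector classes. No threshold on the data picked them, but the list was chosen with earlier results of these data known. In all, 40 of the 44889 genes with at least 1 read belong to the list, and 39 of the 40 passed the filter on low counts that left 24153 genes for testing. IFI16, a nuclear DNA sensor, was the exception, with at most 4 reads in any library. In the standard pathway an interferon binds its receptor outside the cell, the receptor's kinases become active, and transcription factors then bind a short promoter sequence, the interferon-stimulated response element. The effectors switched on in this way bind foreign RNA, block the entry or exit of virus particles, tag proteins with ISG15, use up nucleotides or attach ADP-ribose to proteins.

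The libraries came from HCT116, a human colorectal carcinoma line, either wild type or with TNRC6A, TNRC6B or both knocked out. TNRC6 paralogs are the scaffolds that join microRNA-loaded Argonaute to the machinery that silences messenger RNAs. Untransfected cells were wild type, TNRC6A-/- (a frameshift in TNRC6A), TNRC6B-/- (a deletion in TNRC6B) or TNRC6AB-/- (both genes). Transfected cells were wild type or TNRC6AB-/-, each given either siGL2, a control duplex with no matching human transcript, or siTNRC6C, a pool of duplexes against the remaining paralog. Each of the 8 groups had 3 libraries. Each knockout was a single line, so a line and its genotype cannot be told apart, and nothing in the sources used here tells separate cultures from repeat libraries within a group. The p-values therefore measure only the spread between these libraries, which may be technical.

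Levels are given as CPM, reads of a gene scaled to a common library size, computed with library sizes normalised by edgeR's TMM method. Differences are log2 fold changes with a standard error (SE) from edgeR's quasi-likelihood test, and "rose" or "fell" is used where the p-value adjusted over all 24153 genes was under 0.05.

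The response element sequence itself was looked for first, because it is what these genes are known to share and no expression value enters it. The core GAAANNGAAA was searched on both strands, overlapping matches included, from 250 bases before to 50 bases after each RefSeq gene start (GRCh38.p14). Of the 40 genes 34 had a promoter in the table, and 25 of these 34 (73.5%) held the core, against 1195 of 27305 genes (4.38%) with a promoter. A match is a description of the letters and was not tested for binding. The 9 promoters without a match were those of CMPK2, HERC6, IFI16, IFI35, SAMD9L, SAMHD1, SP110, UBE2L6 and XAF1, and no promoter was given for IFIT2, IFITM2, MX2, USP18, PARP10 and TRIM22. Sites from genes that carry the results below follow, read on the strand of the gene, with the core or its reverse complement in capitals and 10 flanking bases on each side:
IFIT1 (chr10:89392510-89392539): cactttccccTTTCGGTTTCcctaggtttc
IFIT5 (chr10:89414513-89414542): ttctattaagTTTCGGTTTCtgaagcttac
IFI6 (chr1:27672288-27672317): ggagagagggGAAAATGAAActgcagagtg
IFI44 (chr1:78649761-78649790): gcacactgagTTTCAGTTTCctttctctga
ISG15 (chr1:1013380-1013409): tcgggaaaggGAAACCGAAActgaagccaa
BST2 (chr19:17405741-17405770): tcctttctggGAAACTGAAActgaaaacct
IFITM1 (chr11:314024-314053): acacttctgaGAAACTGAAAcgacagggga
IFITM3 (chr11:320876-320905): aaactgttgaGAAACCGAAActactgggga
SAMD9 (chr7:93118096-93118125): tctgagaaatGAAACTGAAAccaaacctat
PARP12 (chr7:140062942-140062971): ccggggccgcTTTCGGTTTCgtttcccgcc
PARP14 (chr3:122680800-122680829): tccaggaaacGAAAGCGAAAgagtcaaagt
DTX3L (chr3:122564322-122564351): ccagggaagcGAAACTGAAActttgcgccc

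The first base of the core lay 103 bases before the start of IFIT1 and 107 before that of ISG15, but 6 before those of IFITM1 and DTX3L. The DTX3L site also lies in the window of PARP9, which is transcribed in the opposite direction and whose product works in a complex with DTX3L, so these 2 genes share 1 printed site. Read on either strand, the printed cores of IFIT1, IFIT5, ISG15, IFITM3 and PARP12 had the same letters, as did those of IFI44, BST2, IFITM1, SAMD9 and DTX3L.

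Libraries held between 28144290 and 42689320 assigned reads. Mean TNRC6A level was 111.4 CPM in wild type and 68.6 in TNRC6A-/-, and mean TNRC6B level was 192.3 in wild type and 119.8 in TNRC6B-/-. TNRC6C was 53.7 CPM in wild type with siGL2 and 21.0 with siTNRC6C, and 119.8 in TNRC6AB-/- with siGL2 and 19.7 with siTNRC6C. Of 7 markers fixed for this line 6 were at 1 CPM or more in every group, the exception being VIL1, and their summed level was 1147 to 2684 CPM in all libraries. Marker sums for other cell types were low, 4.27 to 11.5 CPM for 6 leukocyte genes and at most 0.284 CPM for 2 genes of plasmacytoid dendritic cells, whose defining gene LILRA4 had no read in 7 of the 8 groups. The fibroblast list was the exception and is given below.

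The 3 untransfected TNRC6AB-/- libraries did not hold these genes at 1 level. Replicate 1 was below replicates 2 and 3 for 35 of the 39 genes (89.7%), against 38.4% of all tested genes. For 23 genes (59%) replicates 2 and 3 were each at least 2 times replicate 1, a spread that 2.12% of all tested genes showed. The median ratio of the mean of replicates 2 and 3 to replicate 1 was 2.22. IFI27, an interferon-induced mitochondrial protein, spanned the most, with 4.51, 26.0 and 37.8 CPM in replicates 1, 2 and 3. XAF1, a partner of an apoptosis inhibitor, and MX2 ran the other way and were highest in replicate 1, at 20.2, 12.9 and 9.91 CPM for XAF1. Replicate 1 was still above every wild-type library for 36 of the 39 genes (92.3%, against 39.2% of all tested genes). Retained-intron transcripts took 5.15%, 3.86% and 3.52% of the reads of these libraries. Their part in the difference was not tested. The counts or medians over the 39 genes that use this group are therefore also given without some of these libraries. The levels and changes of single genes are mostly given with all 3.

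**Figure D1:**
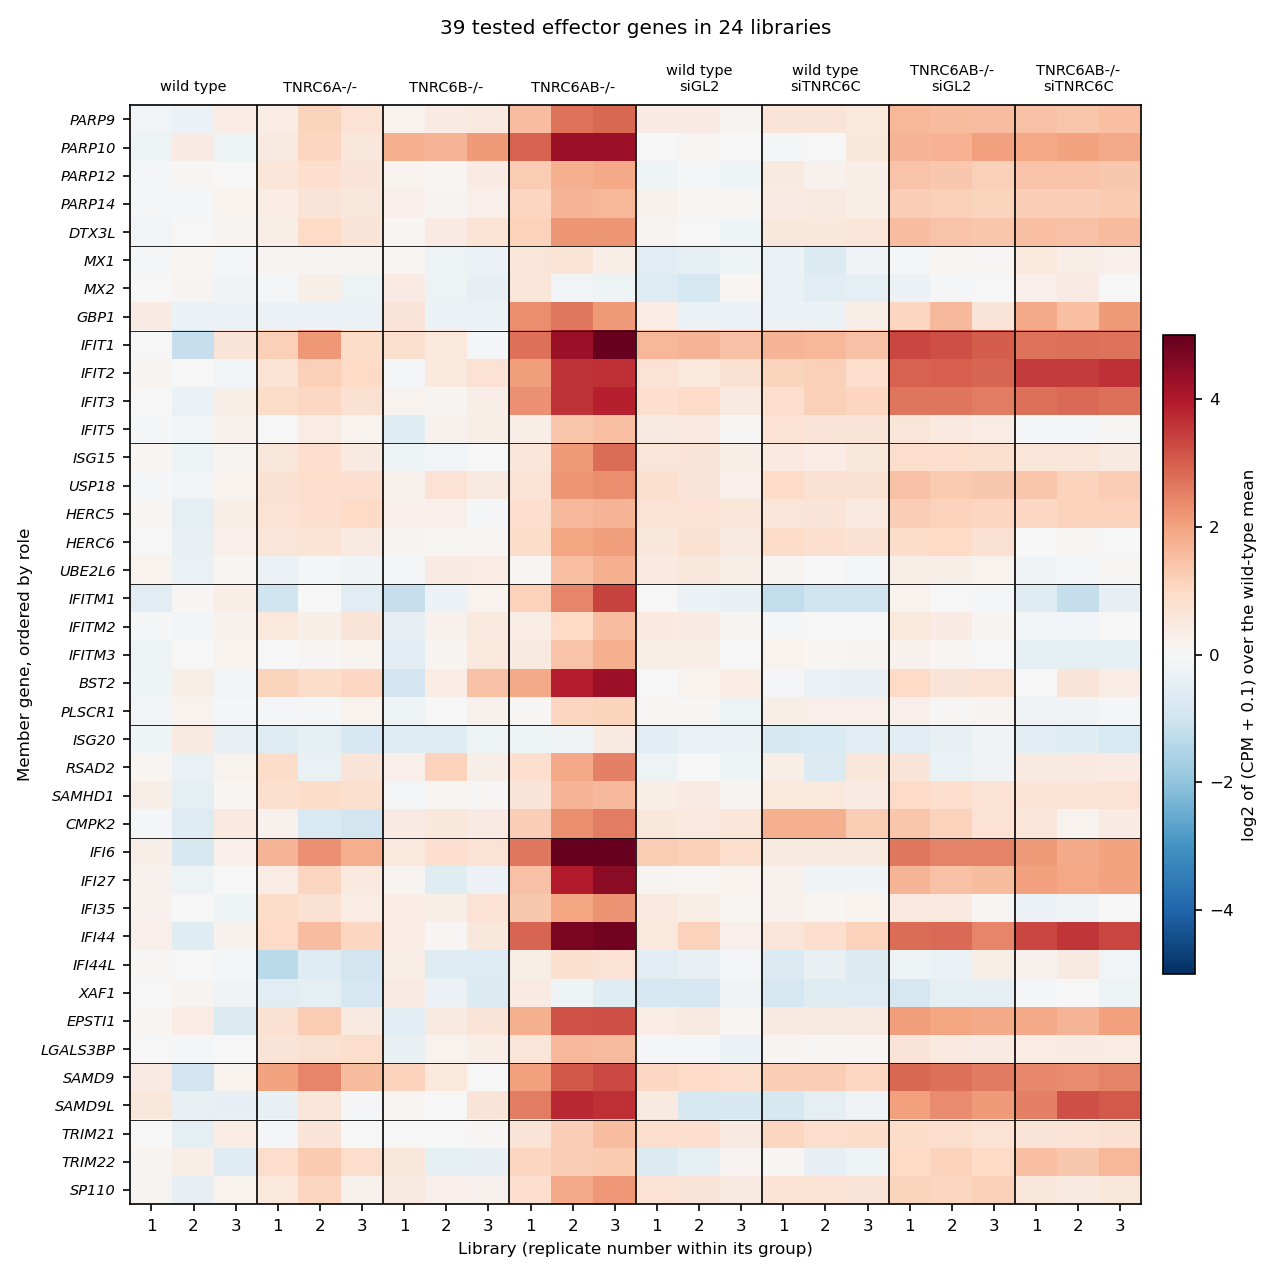
Level of each tested gene (rows, by role) in each of the 24 libraries (columns, by group), as log2 of the CPM over the wild-type mean with 0.1 CPM added to both. The untransfected TNRC6AB-/- libraries are the highest block, with replicate 1 paler than replicates 2 and 3; the median gene stood at 1.07, 1.96 and 2.15 in replicates 1, 2 and 3.

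Loss of both TNRC6A and TNRC6B in untransfected cells went with higher levels of most effectors. Against wild type 35 of the 39 genes rose and none fell, while 17.2% of all tested genes rose and 12.3% fell. The median log2 fold change was 1.92 over the 39 genes and 0.01 over all tested genes, and 1.84 without GBP1, which had very few reads in controls. All 3 knockout libraries lay above all 3 wild-type libraries for 34 of the 39 genes (87.2%, against 19.4% of all tested genes). In RNA from bulk cultures, more cells expressing a gene and more RNA per cell cannot be told apart. Without replicates 2 and 3, so that replicate 1 was the sole library of its group and was assumed to vary like the others, 23 genes rose with a median of 1.01, with 6.42% of all tested genes rising. The 12 genes no longer called were IFIT5, IFITM1, IFITM2, IFITM3, PLSCR1, UBE2L6, SAMHD1, CMPK2, RSAD2, MX1, TRIM21 and TRIM22. Without replicate 1 the count was 36, with 17% of all tested genes rising.

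The IFIT proteins bind viral RNA, IFIT1 by recognising caps that lack the methylation of host messages, and all 4 measured IFIT genes rose. IFIT1 had 3.93, 1.75 and 6.28 CPM in wild type and 27.4, 82.3 and 133.2 CPM in TNRC6AB-/-. The groups did not overlap, and the log2 fold change was 4.34 (SE 0.45, adjusted p = 1.32e-07). IFIT3, which stabilises IFIT1 on RNA, had 1.17, 0.92 and 1.52 CPM in wild type and 6.21, 15.9 and 19.4 CPM in TNRC6AB-/-, a log2 change of 3.52 (SE 0.288, adjusted p = 3.52e-09). IFIT2, a partner of both, went from 2.04, 1.85 and 1.69 CPM to 8.13, 23.7 and 24.9, a change of 3.35 (SE 0.293, adjusted p = 1.07e-08), and IFIT5 rose by 1.16. The 4 genes lie in a row on chromosome 10 (GRCh38, 89283694 to 89421001) and are similar in sequence, so estimated counts may be shared among them.

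All 5 genes of membrane and entry restriction rose. BST2, or tetherin, which holds budding virus particles on the cell surface, had 0.691, 1.03 and 0.725 CPM in wild type and 3.31, 13.9 and 17.7 CPM in TNRC6AB-/-. That was a log2 change of 3.83 (SE 0.497, adjusted p = 2.84e-06). IFITM1, IFITM2 and IFITM3 stop viral membranes from fusing with the cell's own, and they rose by 2.64 (SE 0.398, adjusted p = 2.02e-05), 1.04 and 1.32 on the log2 scale. IFITM1 had 1.75, 2.64 and 3.30 CPM in wild type and 5.83, 14.3 and 27.9 in TNRC6AB-/-. PLSCR1, a phospholipid scramblase that also blocks entry, rose by 0.83. The annotated span of IFITM2 on chromosome 11 (307631 to 315272) contains all of IFITM1 (313506 to 315272), so reads of these 2 genes are uncertain. With replicate 1 as the sole knockout library IFITM1 was at 1.08 with adjusted p = 0.0573.

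ISG15 is a ubiquitin-like protein that is attached to other proteins, and the 5 genes of its cycle all rose. ISG15 itself had 17.8, 13.9 and 18.5 CPM in wild type and 25.5, 74.0 and 117.3 CPM in TNRC6AB-/-, a log2 change of 2.11 (SE 0.296, adjusted p = 7.98e-06). The groups did not overlap, but replicate 1 stood close to wild type. UBE2L6, the conjugating enzyme, rose by 1.30, and HERC5, the ligase, by 1.44. HERC6, a relative of HERC5, had 6.73, 5.18 and 8.01 CPM in wild type and 12.6, 26.2 and 28.5 in TNRC6AB-/-, a change of 1.76 (SE 0.203, adjusted p = 5.9e-07). USP18, which removes ISG15 and also quietens the interferon receptor, rose by 1.95.

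The ADP-ribosylation genes all rose, 5 of 5, and 3 of them, PARP10, PARP12 and PARP14, had the smallest adjusted p-values of the 39 genes. PARP10, which adds single ADP-ribose units, had 0.785, 1.29 and 0.785 CPM in wild type and 8.10, 20.1 and 20.2 in TNRC6AB-/-. Its log2 change of 4.08 (SE 0.301) had adjusted p = 8.34e-10. PARP12, a related enzyme that acts against RNA viruses, had 14.4, 15.9 and 15.1 CPM in wild type and 36.5, 52.6 and 56.7 in TNRC6AB-/-, a change of 1.68 (SE 0.128, adjusted p = 1.27e-09). PARP14, another of these enzymes, went from 43.2, 41.9 and 50.8 CPM to 96.3, 148.1 and 142.4 and rose by 1.51 (SE 0.122, adjusted p = 3.01e-09). PARP9 rose by 2.49 and its ubiquitin-ligase partner DTX3L by 1.95. PARP9 and DTX3L overlap at their starts on chromosome 3 on opposite strands.

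SAMD9, a cytoplasmic factor that restricts poxviruses, had 19.9, 7.59 and 16.9 CPM in wild type and 61.8, 127.4 and 146.6 in TNRC6AB-/-, a change of 2.92 (SE 0.318, adjusted p = 2.58e-07). Its neighbour and paralog SAMD9L also rose, from 5, 1 and 1 reads to 29, 84 and 68 reads. Of the nucleotide and nucleic acid enzymes, SAMHD1, which breaks down the nucleotides used for DNA, rose by 1.38 (SE 0.19, adjusted p = 6.27e-06). It had 34.7, 20.02 and 30.03 CPM in wild type and 43.9, 90.8 and 86.0 in TNRC6AB-/-. CMPK2, a nucleotide kinase, rose by 2.34. RSAD2, or viperin, whose product ends viral RNA chains, rose by 2.5 from 5, 3 and 6 reads to 11, 31 and 44 reads. CMPK2 and RSAD2 overlap in the annotation. ISG20, an exonuclease, was the remaining member, at 0.07 (SE 0.205, adjusted p = 0.859).

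Of the 3 GTPases, MX1, which traps incoming viral nucleocapsids, rose by 0.56 (SE 0.157, adjusted p = 0.00831), from 2.85, 3.14 and 2.80 CPM to 4.47, 4.80 and 3.73. MX2, its nuclear-pore relative, was at 0.11 (SE 0.252, adjusted p = 0.794). GBP1, a guanylate-binding protein, rose from 2, 0 and 0 reads to 16, 24 and 14 reads, too few in wild type for a fold. SP110, a nuclear body protein, went from 10.6, 7.10 and 10.8 CPM to 16.9, 35.3 and 42.5 and rose by 1.74 (SE 0.236, adjusted p = 5.2e-06). TRIM21 and TRIM22, ubiquitin ligases with antiviral roles, rose by 1.20 and 1.24.

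Of the 8 other effectors 6 rose. IFI6, which guards the endoplasmic reticulum against flaviviruses, had 6.501, 2.957 and 6.252 CPM in wild type and 33.2, 172.1 and 194.7 in TNRC6AB-/-, a change of 4.67 (SE 0.42, adjusted p = 1.6e-08). IFI44 had 0.251, 0.0964 and 0.242 CPM and then 2.11, 7.72 and 8.29, the largest fitted change of the 39 genes, at 4.91 (SE 0.448, adjusted p = 1.89e-08), though its wild-type level rested on 8, 3 and 8 reads. IFI27 had 1.80, 1.27 and 1.58 CPM in wild type, below the 4.51, 26.0 and 37.8 given above, and rose by 3.88 (SE 0.451, adjusted p = 6.34e-07). EPSTI1 rose by 3.09, IFI35 by 1.92 and LGALS3BP, a secreted glycoprotein, by 1.34. IFI44L was at 0.64 (SE 0.263, adjusted p = 0.0707) and XAF1 at -0.07 (SE 0.241, adjusted p = 0.869).

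For 5 genes under 50% of the reads in TNRC6AB-/- were assigned to protein-coding transcripts, so the gene sums above describe mostly other transcripts of the gene. The share was 33.6% for IFI44L, 38.8% for MX1, 1.07% for MX2, 10.7% for PARP12 and 9.59% for CMPK2. Counting protein-coding transcripts alone, by the same edgeR test, IFI44L rose by 1.94 (adjusted p = 0.00174) and MX1 by 1.27 (adjusted p = 0.00067). PARP12 then rose by 1.26 (adjusted p = 0.0115, against 1.27e-09 over all its transcripts). CMPK2 rose by 4.09 (adjusted p = 0.0479, against 2.49e-05). MX2 was then below the filter.

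**Figure D2:**
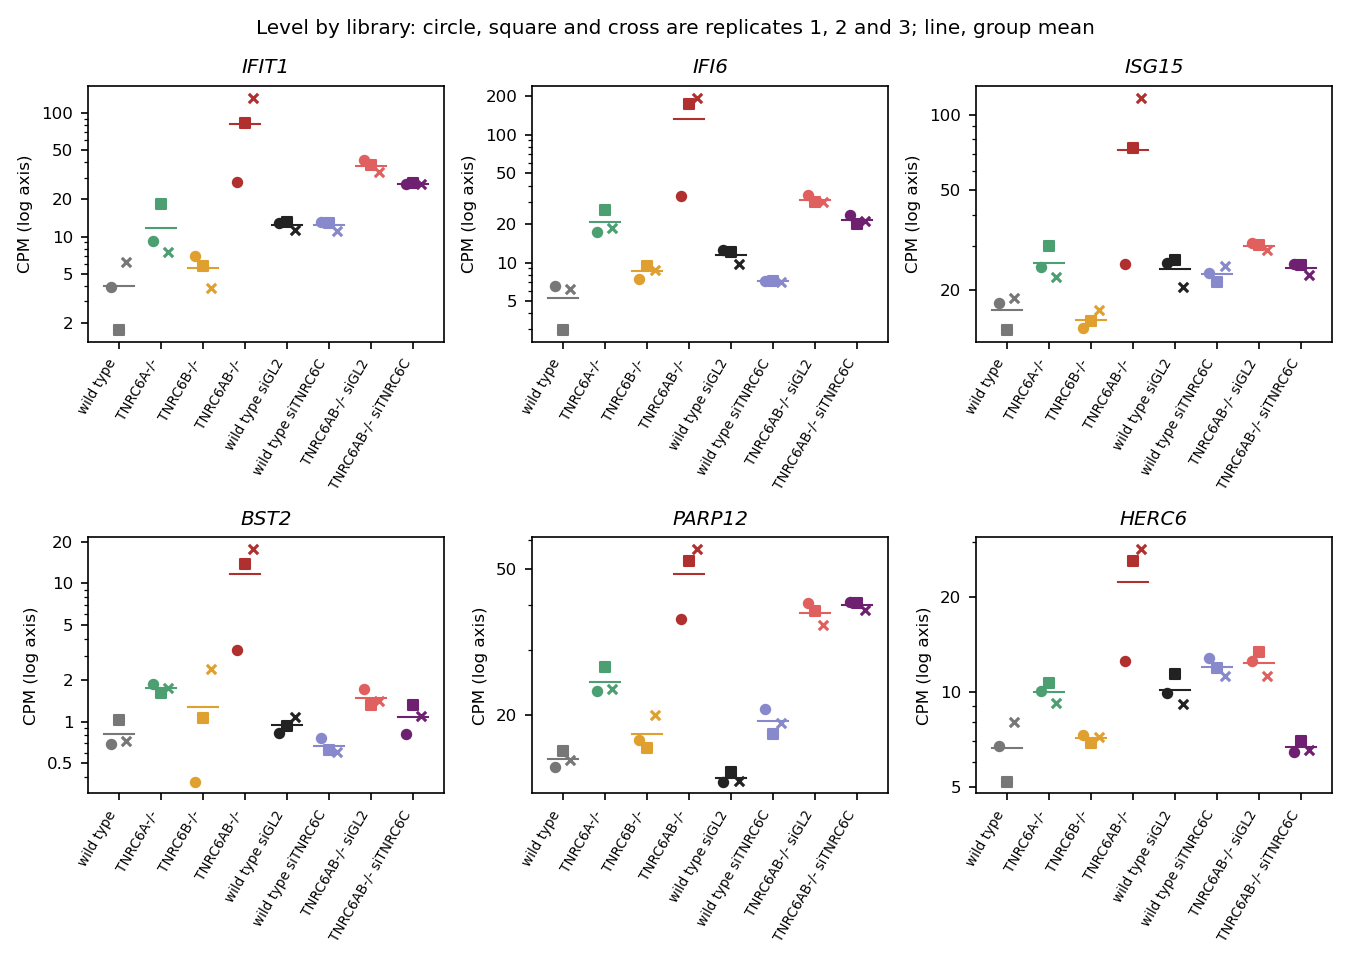
CPM on a log axis of 6 genes in each library of the 8 groups, with a marker for each library (circle, square and cross for replicates 1, 2 and 3) and a horizontal line for the group mean. IFIT1, IFI6, ISG15 and BST2 are spread widely in untransfected TNRC6AB-/-, and PARP12 keeps a gap between TNRC6AB-/- and wild type under siGL2 (40.6, 38.4 and 35.2 against 13.2, 14.0 and 13.2 CPM).

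Levels were compared between genes as TPM, which corrects for transcript length. In wild type the order was led by IFITM3 at 154 TPM, LGALS3BP at 66.6 and IFITM2 at 38.4. In TNRC6AB-/- IFITM3 led at 346 TPM, and IFI6 stood level with LGALS3BP at 146. The median gene was at 3.35 TPM in wild type and 10.1 TPM in TNRC6AB-/-, and the number of genes at 10 TPM or more was 7 and 20. By promoter, the 25 genes with the response element core had a median log2 change of 2.11 with 23 rising, and the 8 tested genes whose promoter lacked it had 1.75 with 7 rising. The difference between these classes was not tested.

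The single knockouts address which paralog the changes go with. In TNRC6A-/- 16 of the 39 genes rose and 1 fell against wild type, while 8.52% of all tested genes rose and 5.47% fell, with a median log2 change of 0.69 over the 39 genes. This comparison uses the same wild-type libraries as that of TNRC6AB-/-. SAMD9 rose the most clearly, to 59.3, 80.4 and 44.1 CPM, by 2.05 (SE 0.31, adjusted p = 8.26e-05). PARP12 rose to 23.2, 27.0 and 23.5 CPM, by 0.70 (SE 0.127, adjusted p = 0.000579), and IFI6 to 17.3, 25.8 and 18.6 CPM, by 1.97 (SE 0.391, adjusted p = 0.00137). Neither IFI6 nor SAMD9 overlapped wild type. No gene of membrane and entry restriction rose (0 of 5), whereas 3 of 4 IFIT genes and 4 of 5 ADP-ribosylation genes did. These roles were not tested against each other, and in a fit of the 6 libraries alone BST2 was called higher, at 1.06 (adjusted p = 0.0322). IFI44L, at 0.5766, 0.9996 and 0.8138 CPM against 1.67, 1.64 and 1.51, fell by 1.003 on the log2 scale (SE 0.291, adjusted p = 0.0232), but its value in protein-coding transcripts alone was -0.26 (adjusted p = 0.776). The PARP12 call was also lost in protein-coding transcripts (0.15, adjusted p = 0.824). The count of rising genes was 7 without TNRC6A-/- replicate 2, 9 without wild-type replicate 1 and 9 without wild-type replicate 2. The TNRC6A-/- libraries had the shortest mean fragments, 165.4 to 171.6 bases against 182.1 to 191.5 in the other untransfected libraries, and the part of this was not tested.

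In TNRC6B-/- 5 of the 39 genes were at an unadjusted p under 0.05. At the adjusted threshold 1 rose, against 2.2% of all tested genes, and none fell, against 0.94%. The gene was PARP10, at 3.52, 3.28 and 4.51 CPM against 0.785, 1.29 and 0.785 in wild type, a change of 1.98 (SE 0.302, adjusted p = 0.000341). The groups did not overlap. PARP10 in TNRC6A-/- was at 0.78 (SE 0.32, adjusted p = 0.11). The median over the 39 genes was 0.22. An alternative chosen after seeing the data left out TNRC6B-/- replicate 1 and TNRC6AB-/- replicate 1. These libraries had the largest retained-intron share of their groups (5.74% and 5.15%, beside 5.175% in wild-type replicate 2). This alternative gave 6 rising genes, and the share of all tested genes in that fit is not given here.

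TNRC6AB-/- also differed from each single knockout. Against TNRC6A-/- 34 of 39 genes were higher, with 13% of all tested genes higher, and the median log2 difference was 1.25. GBP1 had no read in TNRC6A-/-, and its level in TNRC6AB-/- was at least 16.1-fold higher, taking a floor of 3 counts over the group. The median was the same with GBP1 set at that bound. Against TNRC6B-/- 36 of 39 were higher, with 11% of all tested genes higher and a median of 1.46. In TNRC6A-/- PARP10 had 1.32, 2.10 and 1.47 CPM, IFIT3 2.36, 2.59 and 2.13, and IFI44 0.475, 0.774 and 0.532, each below all 3 TNRC6AB-/- libraries. PARP10 differed by 3.31 from TNRC6A-/- (SE 0.284, adjusted p = 1.71e-08), IFIT3 by 2.55 (SE 0.268) and IFI44 by 3.34 (SE 0.386). In TNRC6B-/- IFIT3 had 1.37, 1.32 and 1.53 CPM, PARP12 17.1, 16.2 and 20.03, and PARP14 54.5, 50.0 and 53.5, again with no overlap. From TNRC6B-/- IFIT3 differed by 3.30 (SE 0.282), PARP12 by 1.45 (SE 0.126) and PARP14 by 1.29 (SE 0.121). With replicate 1 as the sole TNRC6AB-/- library the median differences were 0.50 from TNRC6A-/- and 0.74 from TNRC6B-/-. Without replicate 1 they were 1.53 and 1.81, with 35 and 37 genes higher, beside 12.5% and 10.8% of all tested genes.

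Many of these genes were lower in siGL2-transfected than in untransfected TNRC6AB-/- cells. Of the 39 genes 25 fell and none rose between untransfected and siGL2-transfected TNRC6AB-/- cells. Of all tested genes 10.4% fell and 9.74% rose. The median log2 change over the 39 genes was -0.79. The fall rested on replicates 2 and 3 of the untransfected group. Compared with replicates 2 and 3 alone, 32 genes fell, while 9.86% of all tested genes fell. Compared with replicate 1 alone, 3 genes fell (PARP10, IFI35 and XAF1) and 2 rose (IFIT2 and USP18), with a median of 0.11, while 4.11% of all tested genes fell and 8.88% rose, so neither count stood far from that of all genes. All 3 siGL2 libraries were below both replicates 2 and 3 for 36 genes (92.3%, against 25.6% of all tested genes). They were all above replicate 1 for 15 genes (38.5%, against 34.2%) and all below it for 13 (33.3%, against 44.3%). The median ratio of the siGL2 mean to replicate 1 was 1.01 and that to the mean of replicates 2 and 3 was 0.468. Against the wild-type mean, the median gene stood at 1.01, 1.07 and 0.75 on the log2 scale in the siGL2 libraries, close to the 1.07 of replicate 1. Without replicate 2 or without replicate 3 the count of falling genes was 14 in each case, and without siGL2 replicate 2 it was 16. Untransfected and transfected cells also differed in handling and in mean fragment length (165.4 to 191.5 against 196.7 to 214.1 bases), and these cannot be told apart from the duplex.

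PARP10 fell to 3.32, 3.43 and 4.24 CPM with siGL2 from 8.10, 20.1 and 20.2, by 2.14 on the log2 scale (SE 0.261, adjusted p = 6.79e-06), and did not overlap replicate 1. IFI35 fell to 6.04, 5.94 and 4.46 CPM from 10.9, 17.0 and 20.5, by 1.55 (SE 0.197, adjusted p = 1.12e-05), again below all 3 untransfected libraries. IFITM1 fell to 2.871, 2.502 and 2.428 CPM, by 2.62 (SE 0.395, adjusted p = 7.31e-05), but with replicate 1 as the sole untransfected library it was at -1.08 (adjusted p = 0.0636). All 5 genes of membrane and entry restriction fell. SAMD9, at 109.4, 99.4 and 90.8 CPM with siGL2, lay above replicate 1 and below replicates 2 and 3, and its change was -0.17 (SE 0.291, adjusted p = 0.75). IFIT2, TRIM22 and HERC5 likewise did not pass the test.

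**Figure D3:**
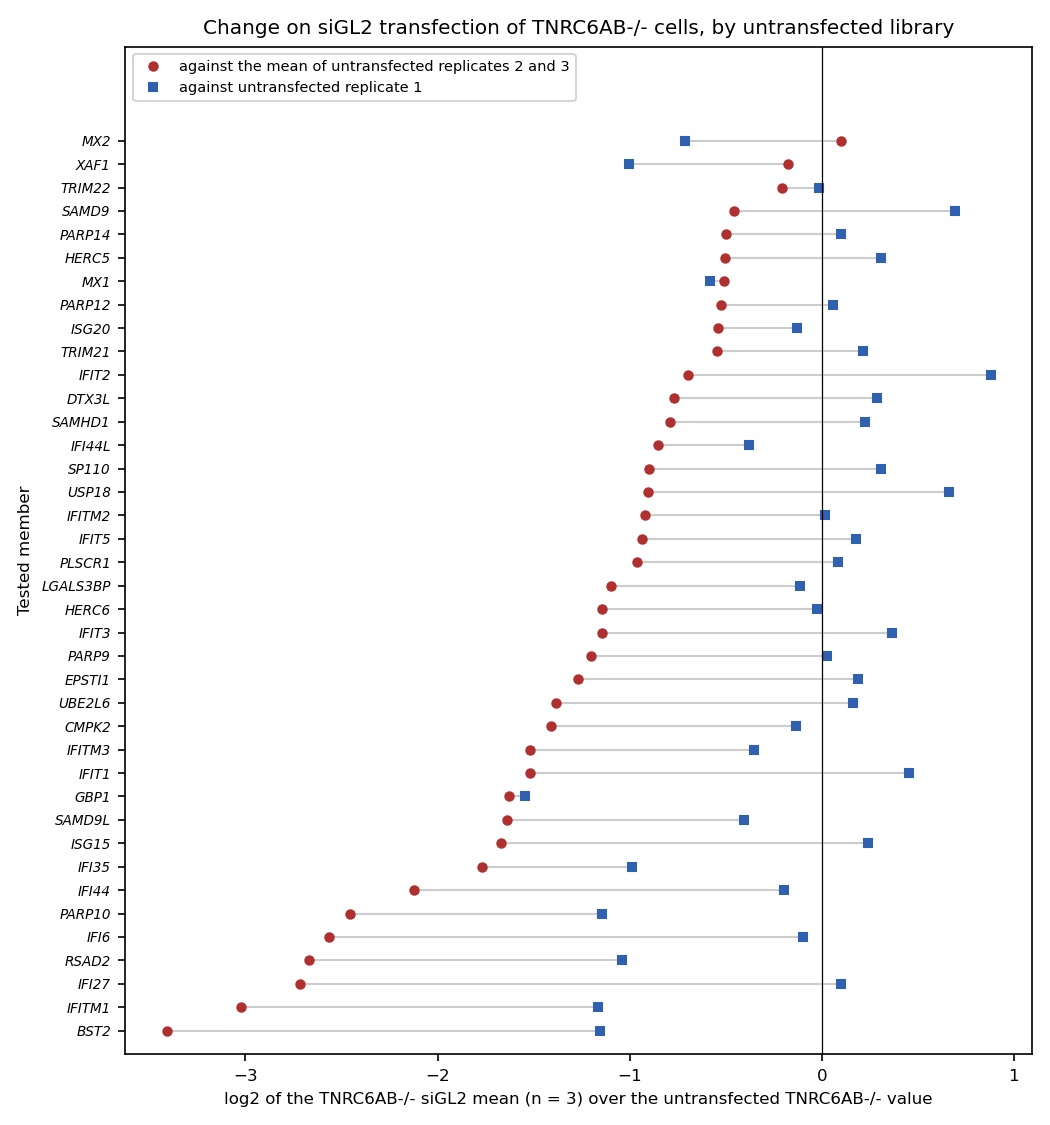
Log2 ratio of the TNRC6AB-/- siGL2 mean (n = 3) to untransfected TNRC6AB-/- for each of the 39 genes, against the mean of replicates 2 and 3 (circles) and against replicate 1 (squares). Every circle but that of MX2 lies below 0, and the squares lie on either side of it, with median ratios of 0.468 and 1.01 before taking the log.

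In wild type the same transfection gave 6 rising genes of 39 and no falling ones. Of all tested genes 16.4% rose and 8.41% fell, so the share of 6 in 39 was near that of all genes. The 6 rising genes were IFIT1, IFI6, HERC5, HERC6, SAMD9 and TRIM21. IFIT1 rose to 12.9, 13.0 and 11.3 CPM, by 1.63 (SE 0.426, adjusted p = 0.00877). HERC5, at 22.7, 22.7 and 21.0 CPM against 14.5, 9.84 and 17.0, rose by 0.68 (SE 0.176, adjusted p = 0.00791). TRIM21, at 10.8, 10.5 and 8.02 CPM against 5.62, 4.24 and 7.46, rose by 0.76 (SE 0.211, adjusted p = 0.0126). Neither of these overlapped. The count was 0 without wild-type replicate 2, which had the lowest level of 22 of the 39 genes in its group, and 2 without siGL2 replicate 1 or 2. In a fit of these 6 libraries alone it was also 0.

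The difference between the 2 transfection effects, the change in TNRC6AB-/- minus that in wild type, was lower for 19 genes and higher for none. Its median over the 39 genes was -1.13, and of all tested genes 6.5% were lower and 2.22% higher. IFI35 differed by -1.87 (SE 0.282, adjusted p = 0.000287), IFI6 by -3.24 (SE 0.533, adjusted p = 0.000556) and HERC6 by -1.47 (SE 0.281, adjusted p = 0.0023). This also rested on untransfected TNRC6AB-/- replicates 2 and 3. With replicate 1 alone 1 gene, IFI35, differed, and without replicate 1 the count was 29. It was 10 without replicate 2, 12 without replicate 3, and 8 in a fit of the 12 libraries concerned.

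With siGL2 in both genotypes, and so with no library shared with the untransfected comparison, 20 of 39 genes were higher in TNRC6AB-/- than in wild type and none lower. Of all tested genes 9.17% were higher and 12.5% lower. The median log2 difference was 0.61. All 20 were also among the 35 of 39 that rose without transfection in the same line, so most of this overlap was given in advance. They took in all 5 ADP-ribosylation genes, both SAMD9 genes and 3 of 4 IFIT genes. They took in none of the 5 genes of membrane and entry restriction and 1 of 5 of the ISG15 cycle, USP18. These roles were not tested against each other, and the fit of the 6 libraries alone, given below, also called BST2, PLSCR1, ISG15, HERC5 and HERC6.

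PARP12 had 40.6, 38.4 and 35.2 CPM in TNRC6AB-/- with siGL2 and 13.2, 14.0 and 13.2 in wild type with siGL2. The difference was 1.502 (SE 0.127, adjusted p = 1.01e-08), though in protein-coding transcripts alone it was 0.56 (adjusted p = 0.284). PARP14 had 105.8, 103.7 and 98.5 CPM against 52.0, 48.8 and 46.9, a difference of 1.06 (SE 0.12, adjusted p = 7.49e-07). IFIT2 had 14.9, 15.5 and 14.5 CPM against 3.11, 2.70 and 3.23, a difference of 2.31 (SE 0.275, adjusted p = 1.53e-06). The groups did not overlap for any of the 3.

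The 15 genes that rose without transfection and did not pass the test with siGL2 were IFIT5, IFI35, IFITM1, IFITM2, IFITM3, ISG15, HERC5, HERC6, RSAD2, CMPK2, BST2, TRIM21, UBE2L6, SP110 and PLSCR1. IFITM3 had 136.6, 125.8 and 115.0 CPM in TNRC6AB-/- with siGL2 and 144.1, 150.2 and 116.4 in wild type with siGL2, a difference of -0.12 (SE 0.232, adjusted p = 0.777). ISG15 was at 0.31 (SE 0.286, adjusted p = 0.515) and BST2 at 0.66 (SE 0.5, adjusted p = 0.405). Such values do not show that the groups were alike. HERC5, at 0.48, had adjusted p = 0.0515. A fit of the 6 libraries alone, in which the spread of other groups plays no part, called 26 genes higher, with 19.9% of its genes higher.

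**Figure D4:**
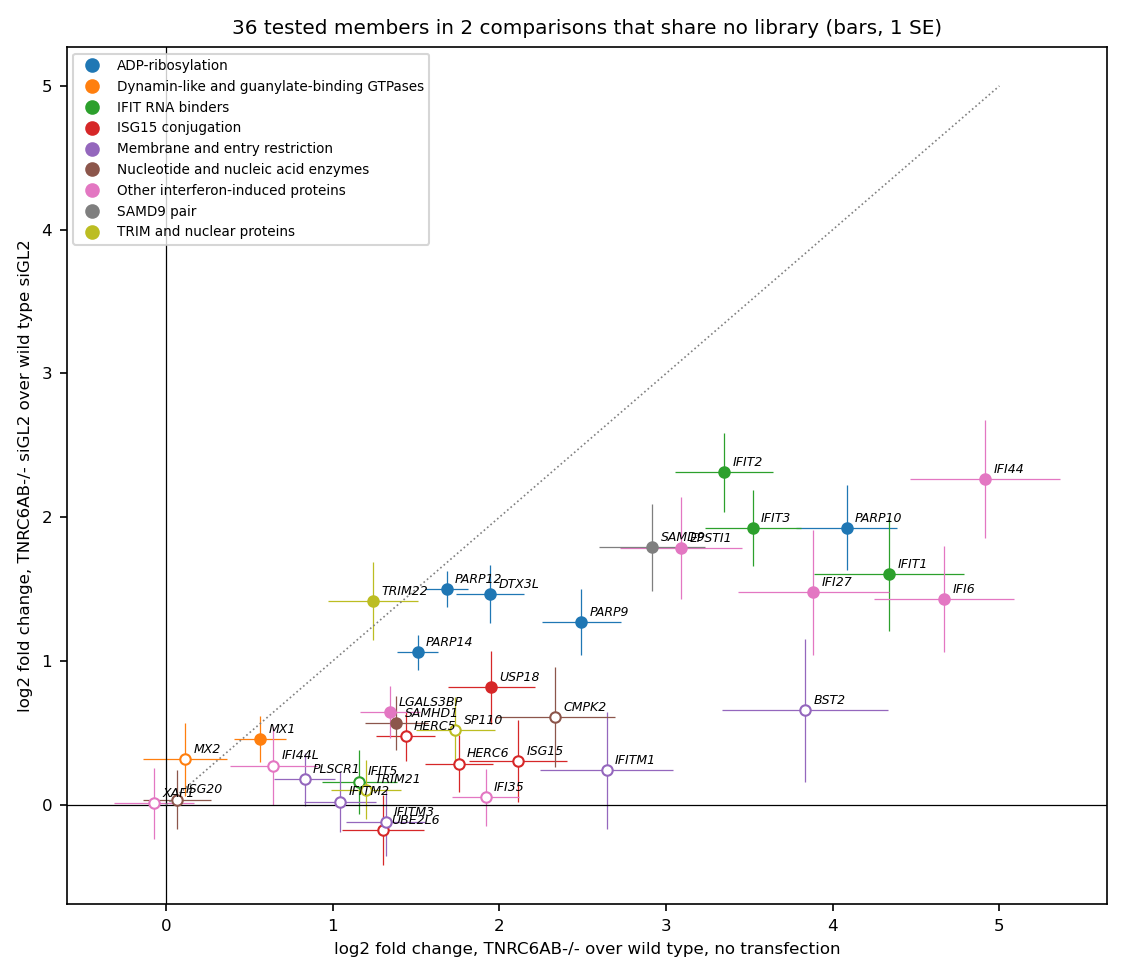
Log2 difference between TNRC6AB-/- and wild type with siGL2 (vertical) against that without transfection (horizontal) for 36 genes coloured by role, with bars of 1 SE, filled points for genes called higher with siGL2 and a dotted line of equal values. GBP1, SAMD9L and RSAD2 are left out for their few reads; ADP-ribosylation genes lie at 1.06 or more on the vertical axis and genes of membrane and entry restriction between -0.12 and 0.66.

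The pool against TNRC6C tests whether lowering the remaining paralog changes the effectors further. In TNRC6AB-/- cells with siTNRC6C 20 of 39 genes were higher than in wild type with siGL2 and 2 lower, while 17% of all tested genes were higher and 25.2% lower. The wild-type libraries are those of the siGL2 comparison above. IFI6 was at 0.90 here (SE 0.367, adjusted p = 0.0522) and at 1.43 there (SE 0.369, adjusted p = 0.00672), and MX2 at 0.67 here (SE 0.252, adjusted p = 0.0362) and at 0.32 there (SE 0.254, adjusted p = 0.439). With siTNRC6C PARP12 had 40.7, 40.5 and 38.6 CPM, IFIT2 22.2, 22.1 and 24.3, and PARP14 107.6, 105.7 and 111.5. PARP12 differed by 1.57 (SE 0.127, adjusted p = 2.03e-09), IFIT2 by 2.92 (SE 0.278, adjusted p = 2.43e-08) and PARP14 by 1.14 (SE 0.12, adjusted p = 1.2e-07). The 2 lower genes were HERC6, at 6.47, 6.99 and 6.55 CPM against 9.91, 11.4 and 9.14 (-0.61, SE 0.2, adjusted p = 0.0181) and IFITM3, at 86.5, 87.4 and 86.6 CPM against 144.1, 150.2 and 116.4 (-0.66, SE 0.233, adjusted p = 0.0272). That count was 0 without siTNRC6C replicate 1 or 3 or without wild-type siGL2 replicate 2, and 1 without siTNRC6C replicate 2 or without wild-type siGL2 replicate 1.

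Of all tested genes 4.38% were lower and 2.19% higher with siTNRC6C than with siGL2 in TNRC6AB-/-. Of the 39 genes 1 was lowered and none raised, and 10 were at an unadjusted p under 0.05. The gene was HERC6, at 12.5, 13.4 and 11.2 CPM with siGL2 and 6.47, 6.99 and 6.55 with siTNRC6C, a change of -0.89 (SE 0.2, adjusted p = 0.00992). The groups did not overlap. Without siTNRC6C replicate 1 or without siGL2 replicate 2 no gene was called. In wild type none of the 39 was called higher or lower by edgeR, against 0.397% and 0.534% of all tested genes, with 5 at an unadjusted p under 0.05, and DESeq2 called 2 higher. PARP12, at 20.8, 17.8 and 19.1 CPM against 13.2, 14.0 and 13.2, missed the threshold at 0.52 (SE 0.127, adjusted p = 0.0506).

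The difference between the 2 genotypes in the response to siTNRC6C was lower for 2 genes and higher for none. Of all tested genes 2.13% were lower and 0.903% higher. HERC6 differed by -1.13 (SE 0.28, adjusted p = 0.0298) and CMPK2 by -1.93 (SE 0.484, adjusted p = 0.0316). CMPK2 had 1.48, 1.24 and 0.896 CPM with siGL2 and 0.821, 0.590 and 0.706 with siTNRC6C in TNRC6AB-/-. In wild type it went from 0.797, 0.758 and 0.822 to 1.97, 1.99 and 1.34. At most 9.59% of its reads were in protein-coding transcripts in untransfected wild type and TNRC6AB-/-, and in those transcripts alone the difference was -0.74 (adjusted p = 0.777). Leaving out any 1 of 9 of the 12 libraries concerned left no gene called, leaving out wild-type siTNRC6C replicate 3 or wild-type siGL2 replicate 2 left 1, and leaving out TNRC6AB-/- siGL2 replicate 3 left both.

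These siTNRC6C counts depended strongly on the libraries that set the spread. With the 6 transfected libraries compared fitted alone, 24 genes were higher and 6 lower in TNRC6AB-/- with siTNRC6C against wild type with siGL2 (31% and 28.9% of its genes). In the same kind of fit 9 were higher and 14 lower against TNRC6AB-/- with siGL2 (16.8% and 22.9%), and 8 higher and 4 lower in wild type (7.72% and 7.74%). The response differed between genotypes for 1 higher gene, IFI27, and 15 lower ones (7.94% and 20.7%).

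The rest of the interferon pathway was read from a list of 49 other genes, of which 41 were tested. In TNRC6AB-/- against wild type 32 of the 41 rose and none fell, beside 17.2% of all tested genes rising and 12.3% falling. With replicate 1 as the sole TNRC6AB-/- library 16 rose, beside 6.42% of all tested genes. In TNRC6A-/- 15 rose (8.52% of all tested genes), and in TNRC6B-/- 1 rose, a share near the 2.2% of all tested genes. The changes that follow are from all 3 libraries. Of the transcription factors, IRF9 rose by 2.06, STAT2 by 0.95 and IRF7, which drives interferon genes, by 2.44 (SE 0.222, adjusted p = 1.84e-08). Of 13 sensors of foreign nucleic acid 10 rose, among them DDX58 (RIG-I) by 2.13, OASL by 2.46 and TLR3 by 2.18. All 9 antigen presentation genes rose, PSMB9 by 2.06 and NLRC5 by 1.25, as did all 3 brakes, SOCS1 by 2.65. Of 9 receptor and kinase genes 3 rose, JAK2 by 0.55, TYK2 by 0.42 and IFNAR2 by 0.34.

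Transcripts of the interferons themselves were scarce. Of 9 interferon genes 1 was tested, IFNE, an epithelial type I interferon, with 32, 46 and 29 reads in wild type and 142, 171 and 98 in TNRC6AB-/-. It rose by 1.84 (SE 0.29, adjusted p = 3.48e-05). IFNL1, a type III interferon, had reads only in the TNRC6AB-/- groups, namely 0, 4 and 4 without transfection, 5, 1 and 2 with siGL2 and 1, 1 and 2 with siTNRC6C.

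On transfection with siGL2 22 of the 41 pathway genes fell in TNRC6AB-/- and none rose, beside 10.4% of all tested genes falling and 9.74% rising. This too rested on untransfected replicates 2 and 3. The median log2 change of the 41 genes was -0.53 with all 3 untransfected libraries and 0.10 against replicate 1 alone. With siGL2 in both genotypes, 13 of the 41 were higher in TNRC6AB-/- than in wild type, beside 9.17% of all tested genes. These included IRF9 by 0.96, DDX58 by 1.42 and SOCS1 by 1.83. Of the 9 antigen presentation genes 2 were still higher. PSMB9 was at 0.29 (SE 0.273, adjusted p = 0.516) and B2M at -0.02 (SE 0.165, adjusted p = 0.952).

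Some genes on the marker lists of other cell types also differed between the groups. COL3A1, a fibrillar collagen on the fibroblast list, had 14.5, 49.2 and 60.4 CPM in untransfected TNRC6AB-/-, at most 0.0942 CPM in wild type, and 7.05, 6.49 and 6.60 with siGL2. The summed level of the 5 fibroblast markers was 21.7 to 28.9 CPM in wild type and 53.3 to 92.2 in TNRC6AB-/-. Without COL3A1 it was 21.6 to 28.8 and 31.8 to 38.8, with COL1A1 the only other marker at 1 CPM or more. In TNRC6AB-/- against wild type COL1A1 rose by 0.49, and PDGFRB (-0.188) and DCN (-0.395) did not pass the test. LUM had no read in 4 groups. LYZ, on the leukocyte list, was 0.0604 to 0.169 CPM in wild type and 1.739 to 2.495 in TNRC6AB-/-. In TNRC6AB-/- it was 1.332 to 1.597 CPM with siGL2 and 2.936 to 3.091 with siTNRC6C. CD3E had no read in 5 groups. Of the other leukocyte markers tested, ITGAX fell by 0.51 (adjusted p = 0.0401), and PTPRC (0.17) and CD68 (-0.06) did not pass the test. The 7 markers of the line moved in both directions. EPCAM fell by 1.38 and CDH1 fell by 1.996 on the log2 scale, KRT8 rose by 0.64 and KRT19 by 0.41, and KRT18, CDX2 and VIL1 did not pass the test. Their part in the result was not tested.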

How the data were processed

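Strand-specific RNA libraries from 24 RNA samples were sequenced by the authors. The submitters' processing notes name Salmon 0.11.0, whose output the files are, with STAR 2.5.3a, DESeq2 and the build hg38, and the transcript set is not given in the sources used here. The deposited tables hold estimated counts per transcript, TPM and an effective length. The strand setting given to Salmon is not given in the sources used here, and extraction is named differently in the labels (Trizol) and the methods (a column kit).

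Estimated counts were summed over the transcripts of each gene and rounded to whole numbers. Transcript versions were joined to the GENCODE annotation, 199368 of 199612 matching, and the rest held at most 0.0544% of a library's reads. Depth was 28144290 to 42689320 reads per library (median 34465674). Genes were filtered with filterByExpr, scaled by TMM and fitted in 1 edgeR 4.0.16 quasi-likelihood model (R 4.3.3) over all 8 groups with 16 residual degrees of freedom. The p-values were adjusted by the Benjamini-Hochberg method over 24153 genes, with 0.05 as the threshold. The method was also run on synthetic counts built from this fit, with a single spread per gene over all groups. TPM values were used for levels between genes only. Low genes are given as reads, and counting error is the only error these cover.

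The genes and lists were chosen with earlier results of these data known. Genes given with full statistics were the 10 largest changes in TNRC6AB-/- against wild type at 5 CPM or more in a group, the smallest adjusted p-value of each role there, the 3 smallest in each other comparison, and those moving against the majority. Alternatives were RLE scaling, DESeq2 1.42.0, other filters, limma 3.58.1 voom, counts scaled from TPM, protein-coding transcripts alone, a fold threshold, the compared libraries alone, a replicate block and leaving out each library. Leaving out several TNRC6AB-/- libraries or first replicates together was chosen after seeing the data. Pathway genes are given as counts with a few examples. No protein sequences were used here. Part of the pathway list is not reported gene by gene here.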

Additional observations from a re-analysis of the deposited data

Results flagged for a closer look

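These results are singled out because 2 groups answered the same contrast differently by a test of the difference itself, the interaction term of the edgeR fit.

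In the response to transfection 6.5% of all tested genes were lower in TNRC6AB-/- than in wild type and 2.22% higher. That response differed for 19 effectors, all lower in TNRC6AB-/-. The 3 with the smallest adjusted p-values were IFI35 (-1.87 on the log2 scale), IFI6 (-3.24) and HERC6 (-1.47). When only libraries of this contrast entered the model, 8 effectors were lower, beside 2.33% of its genes. Dropping single libraries in turn gave 10 to 29 lower effectors. With untransfected TNRC6AB-/- replicate 1 as the sole library of its group, IFI35 alone was still called.

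The response to siTNRC6C differed between the genotypes for 2 effectors, HERC6 (-1.13) and CMPK2 (-1.93), again lower in TNRC6AB-/-. Of all tested genes 2.13% were lower and 0.903% higher. Leaving out any 1 of 9 of the 12 libraries concerned left no gene called. In protein-coding transcripts alone the CMPK2 difference was -0.74 (edgeR, adjusted p = 0.777).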

How the results depend on the processing

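Counts of called effectors kept within 1.5 times of the reported count in 235 of 282 comparisons with another setting and in 145 of 180 that left out 1 library; the named genes kept direction in all of these, and 16 of 500 and 39 of 300 lost their call. A reported count of 0 that stayed 0 was scored as kept, so the shares of kept counts do not measure how stable the counts above 0 were. Fits in which a named gene was below the filter, or had no adjusted p from DESeq2, were not scored for that gene. They are not among the 500 or 300. The causes of the changes below were not tested. Same-numbered libraries did not deviate together in every pair of any comparison (r between -0.32 and 0.55, no comparison with every pair over 0.1). Some pairs did, with r of 0.55, 0.08 and 0.37 between TNRC6AB-/- and TNRC6B-/-. Between TNRC6AB-/- and wild type, both with siGL2, r was 0.22, 0.01 and 0.35. Whether these libraries shared a batch was not tested, and the numbers were not taken as pairs. With a replicate block 35 genes rose in TNRC6AB-/- against wild type and 20 fell on its transfection, and no count moved by over 1.5 times.

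In TNRC6A-/- voom called 8 higher and 0 lower, and the number lower was 3 with no filter, 2 with a mean of 1 CPM, with counts scaled from TPM, with DESeq2 and with the compared libraries alone, and 0 in protein-coding transcripts. In TNRC6B-/- voom called 0, and 6 were called without the first replicates of TNRC6B-/- and TNRC6AB-/-, a fit whose share of all tested genes is not given here. Without TNRC6AB-/- replicates 2 and 3, an alternative chosen after seeing the data, 23 were higher against wild type, 13 against TNRC6A-/- and 21 against TNRC6B-/-, and on transfection 2 rose and 3 fell, with 1 lower in the interaction. With the compared libraries alone 16 fell on transfection of TNRC6AB-/-, 0 rose on that of wild type and 8 were lower in the interaction, which was 30 without the first replicates. In transfected wild type 3 rose with a mean of 1 CPM and in protein-coding transcripts, and 1 fell with no filter and with a mean of 1 CPM.

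For TNRC6AB-/- with siTNRC6C against wild type with siGL2 the number lower was 4 with no filter, 1 with counts scaled from TPM, and 6 with voom and with the compared libraries. Against TNRC6AB-/- with siGL2 it was 4 with no filter, 14 with the compared libraries and 7 with voom, and the number higher was 1 with no filter and in protein-coding transcripts, 9 with the compared libraries and 6 with voom. In wild type siTNRC6C raised 3 with no filter and with voom, 1 with a mean of 1 CPM, 2 with DESeq2 and 8 with the compared libraries, which gave 4 lower. The siTNRC6C interaction was 1 higher and 15 lower with the compared libraries, and 1 lower with counts scaled from TPM, in protein-coding transcripts and with DESeq2, and 6 with voom.

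Leaving out each library in turn gave 7 to 14 higher and 0 to 2 lower in TNRC6A-/-, 1 in TNRC6B-/-, 34 to 36 in TNRC6AB-/-, 29 to 35 against TNRC6A-/- and 34 to 37 against TNRC6B-/-. On transfection 14 to 32 fell in TNRC6AB-/-, 0 to 8 rose and 0 to 3 fell in wild type, and 10 to 29 were lower in the interaction. With siGL2 15 to 19 were higher in TNRC6AB-/-, and with siTNRC6C 16 to 17 higher and 0 to 3 lower. The siTNRC6C effect in TNRC6AB-/- was 0 to 1 lower, and its interaction 0 to 2 lower. Depth limits GBP1, SAMD9L, RSAD2 and IFI16, which had few reads.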
